A study of Mus musculus with 24 samples.

Results

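DNA methylation at 10 genes of the stress hormone axis was examined in the dentate gyrus, the part of the hippocampus in which new neurons are born in adult mice. The genes were Nr3c1, Nr3c2, Fkbp5, Crh, Crhr1, Crhr2, Avp, Sgk1, Hsd11b1 and Hsd11b2. A CpG was taken as belonging to one of them when it lay within the GENCODE M21 span of the gene or within 2 kb of that span, and 552 of the 694379 measured CpGs met this rule. The data give each strand of a CpG its own value, and a CpG is counted here once per strand measured, so the 552 lay at 507 positions when both strands are joined. They covered 9 of the 10 genes, since Hsd11b1 (chromosome 1, 193221634 to 193264075) had 0 rows and was not analysed here.

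In the stress hormone axis, hypothalamic neurons release corticotropin-releasing hormone (encoded by Crh) and vasopressin (Avp), which drive the pituitary and, through it, the release of corticosterone from the adrenal gland. In the hippocampus, corticosterone binds the mineralocorticoid receptor (Nr3c2) and the glucocorticoid receptor (Nr3c1), which then act as transcription factors and take part in the negative feedback on the axis. Fkbp5 encodes a chaperone that lowers the hormone affinity of the glucocorticoid receptor, and Sgk1 encodes a kinase induced by both receptors. The hippocampus also carries receptors for corticotropin-releasing hormone and related peptides (Crhr1, Crhr2), and Hsd11b2 encodes the enzyme that inactivates corticosterone in mineralocorticoid target cells.

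The study asked whether an enriched environment (ENR) acts on age-related DNA methylation changes that already exist in old mice. There were 3 groups of 8 female C57BL/6JRj mice, an inbred laboratory strain: young mice aged 3 months in standard housing (STD), aged mice of 17 months in STD, and aged mice of 17 months that had spent their last 3 months in ENR. Methylation was measured by reduced representation bisulfite sequencing (RRBS), which reads CpG-rich fragments and gives, for each CpG and mouse, the percentage of reads in which the cytosine was methylated. The ENR mice lived together in an enclosure with tunnels and toys and the STD mice in small groups in standard cages, so ENR and a shared cage cannot be told apart. RNA was not measured here, so the label of the tissue was not checked against its marker genes.

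Coverage differed between mice. Of the 552 CpGs, a young STD mouse had a value at 264 to 384 (median 316), an aged STD mouse at 202 to 460 (median 334) and an aged ENR mouse at 282 to 455 (median 363). The number of reads behind each percentage was unknown beyond the minimum of 10, so no interval was given for a single value. One library stood apart: aged STD mouse 5 had a mean methylation of 23.6% over all its CpGs, against 35.8 to 44.5% in the other 23 mice, and of 3.82% over the CpGs of these genes, against 6.76 to 16.7%. Values without it are given beside the results that it moved most. Differences also rested on other single mice: leaving out 1 mouse or another turned or moved by over 1.5 times 45 of the 48 region differences, 20 of them in direction, and 52 of the 66 differences at named CpGs, 14 of them in direction. The 3 region differences that neither turned nor moved by over 1.5 times lay in the Fkbp5 flank and the Sgk1 body. They were those of the Fkbp5 flank for aging and of both regions for aged ENR against young STD. The Fkbp5 flank had values in only 3 aged STD mice, the fewest a fit allows, so none of these could be left out for aging.

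The CpGs on which the differences between groups turned are shown here in their sequence context, so that the neighbourhood of each can be seen when its values are given. Each sequence is the plus strand of GRCm38 from 5′ to 3′, and the capitals mark the measured CpG, which for the Fkbp5 site and the second Sgk1 site was read on the minus strand.
Crhr1 upstream flank, chr11:104131733-104131774: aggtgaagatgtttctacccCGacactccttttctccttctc
Crhr1 promoter, chr11:104132661-104132702: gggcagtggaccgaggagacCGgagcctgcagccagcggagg
Crhr1 intron, chr11:104133658-104133699: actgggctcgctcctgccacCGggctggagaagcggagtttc
Fkbp5 intronic promoter, chr17:28510736-28510777: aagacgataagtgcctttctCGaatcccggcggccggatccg
Sgk1 upstream promoter, chr10:21881723-21881764: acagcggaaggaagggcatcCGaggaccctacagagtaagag
Sgk1 intronic promoter, chr10:21993423-21993464: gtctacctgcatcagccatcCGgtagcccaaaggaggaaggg

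Most promoter CpGs of the stress hormone axis genes were nearly unmethylated, with methylated blocks in Nr3c1, Fkbp5 and Sgk1, and gene bodies ran from nearly unmethylated in Crh and Avp to highly methylated in Fkbp5 and Crhr2. A promoter CpG was one within 1 kb of the start of any transcript of the gene, a body CpG lay elsewhere in the span, and a flank CpG in the remaining 2 kb on either side. Promoters held 436 of the 552 CpGs, bodies 104 and flanks 12. Averaged over the mice, 434 of the 552 CpGs were below 10% methylation and 19 were above 90%, and 81.9% of the single values were exactly 0 while 6.38% were exactly 100. The median CpG mean was 0% in the promoters and 25.4% in the bodies. Over the whole table the median CpG mean was 0.117% within 1 kb of a start site and 82.5% elsewhere. Of the 104 body CpGs, 36 were below 10%, and 16 of these were in Crh and 4 in Avp.

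**Figure D1:**
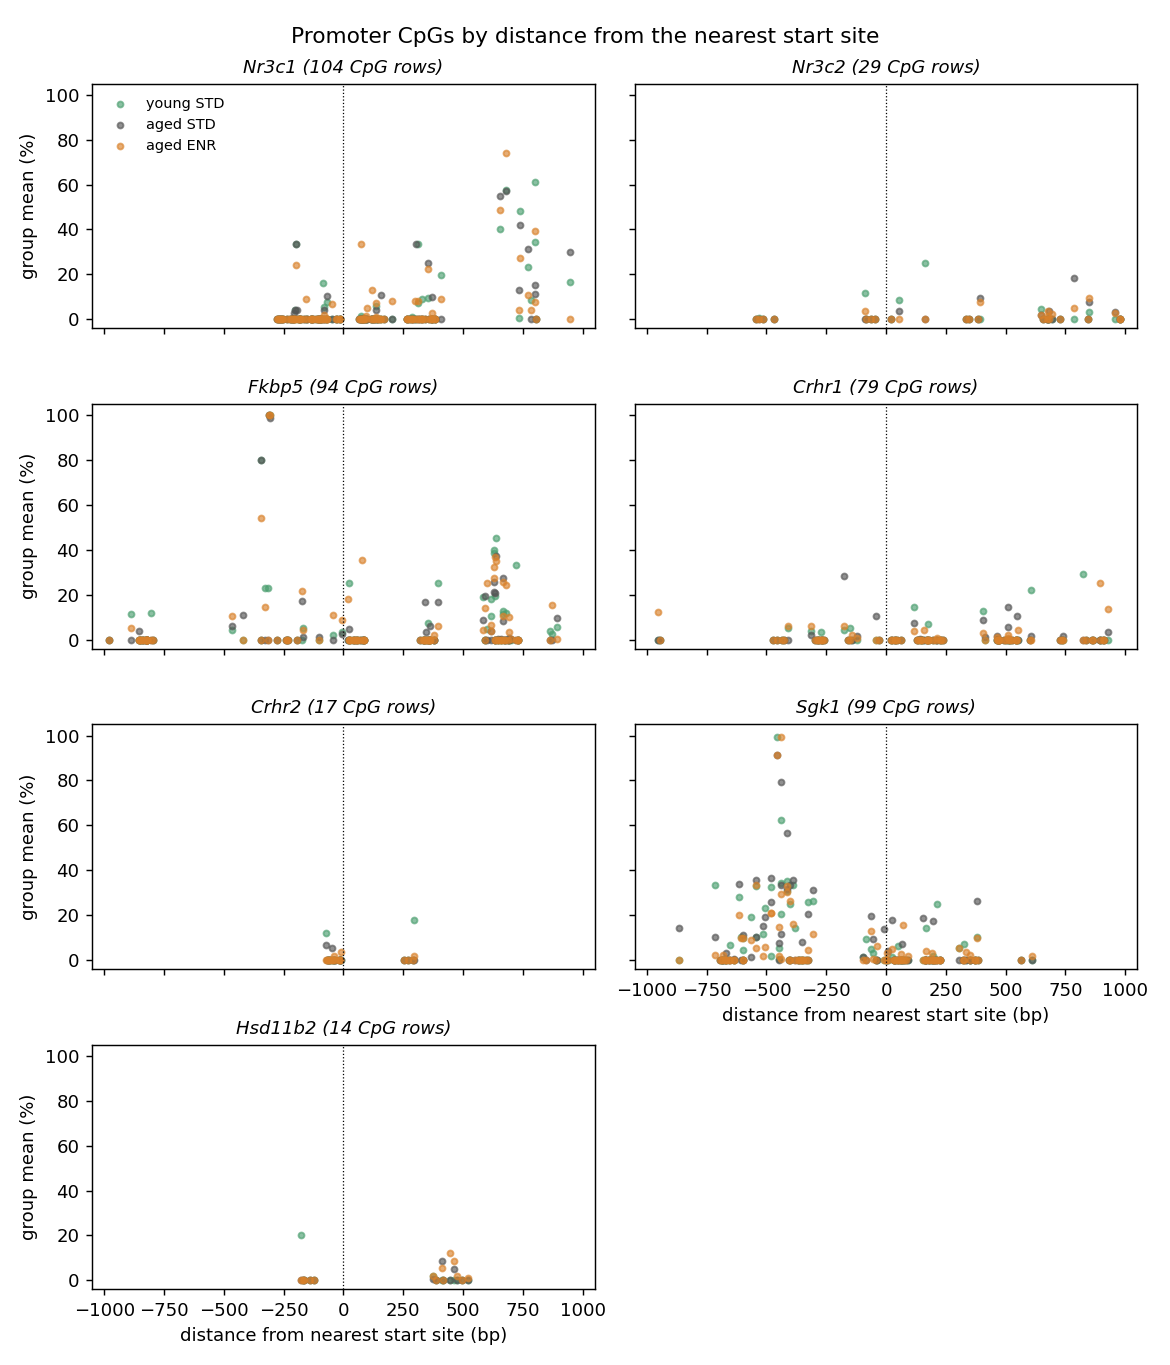
Promoter CpGs of the 7 genes that had any, with the mean methylation of each group (%, vertical axis) against the distance from the nearest transcript start (bp, horizontal axis, negative upstream). Most of the 436 CpGs lie at 0%, and CpGs above 20% in all groups lie on both sides of starts in Nr3c1 and Fkbp5 and upstream of starts in Sgk1.

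Among the receptors, Nr3c1 (ENSMUSG00000024431.15, chromosome 18, 39410545 to 39519421, minus strand) had 9 annotated start sites and 104 CpGs at 98 positions, all of them in promoters. Of these, 96 lay in a block of the 5′ UTR and introns between 39488477 and 39490577, with a median CpG mean of 0% and a highest mean of 20.1%. A block of 7 CpGs in a coding exon (39486285 to 39486576), 656 to 947 bp downstream of the nearest start, was methylated at 17.5 to 62.0% per CpG. Over all 104 CpGs, the promoter value per mouse spanned 1.47 to 9.20% (median 4.70%) among young STD, 0.873 to 9.34% (median 4.23%) among aged STD and 0.141 to 5.81% (median 3.13%) among aged ENR mice. The 3 ranges overlapped over most of their length. The aging difference (aged STD minus young STD) was -0.434 points (95% limma interval -2.95 to 2.08, exact permutation p = 0.742) and the ENR difference (aged ENR minus aged STD) was -0.759 points (-3.27 to 1.75, exact permutation p = 0.535). Without aged STD mouse 5 the aging difference was -0.118 points.

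The intronic Nr3c1 CpG at 39488875, 408 bp downstream of a start, was among the CpGs with the lowest limma p for aging. Its values were 0, 10.7, 21.1, 21.6 and 45.5% in young STD mice, whereas 7 of 8 aged STD mice were at 0% and 1 at 2.38%. The 6 aged ENR mice with a value ran from 0 to 42.5% (median 2.27%). Values above 0 were found in 4 of 5 young STD, 1 of 8 aged STD and 3 of 6 aged ENR mice, and the aged ENR range covered most of the young STD range. The aging difference was -19.5 points (95% interval -34.5 to -4.46, exact permutation p = 0.0140, limma adjusted p = 1). The single measured neighbour within 100 bp on the same strand, 37 bp away, had the opposite order, at 0% in the young STD mice and a mean of 10.1% in the aged STD mice, with a highest value of 42.6%.

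Nr3c2, the mineralocorticoid receptor (ENSMUSG00000031618.13, chromosome 8, 76899442 to 77245012, plus strand), had 29 promoter and 19 body CpGs, 20 of the 48 also lying within the span of the overlapping gene Gm10649. All 29 promoter CpGs had a mean below 10%, and the promoter averaged 1.56 ± 1.55% (SD, n = 8) over young STD, 2.08 ± 2.13% (n = 8) over aged STD and 1.36 ± 1.24% (n = 8) over aged ENR mice. The body was intermediate, at 41.1 ± 10.1% (n = 8), 37.1 ± 10.9% (n = 8) and 40.4 ± 14.7% (n = 8). It was built of unlike stretches, with CpG means of 55.2 to 92.3% over 5 CpGs of a coding exon (76909847 to 76909996) and a median of 18.9% over 5 intronic CpGs (76933084 to 76933280). The intronic CpG at 77214687 had the largest aging and ENR differences of the gene among CpGs with at least 5 mice a group. Its values were 0, 34.6, 58.0, 67.6 and 100% in young STD mice and 0, 0, 0, 9.57 and 39.3% in aged STD mice. In aged ENR mice they ran from 0 to 100% (median 39.1%, n = 6). Each group spread so far that the differences of -42.3 points with aging and 36.6 points with ENR had intervals that included 0 (-91.2 to 6.69 and -10.3 to 83.5).

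Crhr1, the main receptor of corticotropin-releasing hormone (ENSMUSG00000018634.10, chromosome 11, 104132855 to 104175523, plus strand), held the CpG with the lowest limma p of the whole set. Its promoter had 79 CpGs, 78 of them with a mean below 10%, and per mouse it spanned -0.488 to 3.03% (median 1.45%) among young STD, -0.230 to 2.10% (median 1.52%) among aged STD and -0.0609 to 2.82% (median 0.666%) among aged ENR mice. Values below 0 arise because each mouse was adjusted for which CpGs it covered. The promoter's aging difference was -0.0812 points (95% interval -1.33 to 1.17) and its ENR difference -0.236 points (-1.49 to 1.01), the narrowest intervals of the 16 tested regions of these genes. The RefSeq promoter of Crhr1 (GRCm38.p6, chr11:104132531-104132830, plus strand) contains 31 CpG positions, of which the 16 that were measured are in capitals.
Crhr1 RefSeq promoter: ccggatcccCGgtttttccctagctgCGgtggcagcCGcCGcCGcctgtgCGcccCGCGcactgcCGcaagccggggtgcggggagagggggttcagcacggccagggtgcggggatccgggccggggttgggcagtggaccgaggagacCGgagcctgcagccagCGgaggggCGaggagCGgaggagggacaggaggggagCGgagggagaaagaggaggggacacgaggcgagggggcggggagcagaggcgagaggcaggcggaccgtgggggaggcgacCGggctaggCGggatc

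Within this sequence, the CpG at 104132681, 174 bp upstream of the start, was measured in all 24 mice and differed from its neighbours. In young STD mice it was 0% in 7 mice and 33.8% in 1. In aged STD mice the lowest value was 0%, the median 21.3% and the highest 92.3%, and 4 of the 8 mice were above 20%. In aged ENR mice the median was 0% and the highest value 20.5%. The group means were 4.23 ± 12.0% (SD, n = 8), 28.3 ± 33.0% (n = 8) and 5.87 ± 8.92% (n = 8), so the aged STD mice held the high values but overlapped both other groups at 0. The aging difference was 24.1 points (95% interval 2.52 to 45.7, exact permutation p = 0.0312) and the ENR difference -22.4 points (-44.0 to -0.881, exact permutation p = 0.0761), both sharing the aged STD mice, and both had a limma adjusted p of 1 over all CpGs. Leaving out aged STD mouse 8, the mouse at 92.3%, reduced them to 14.9 and -13.3 points. The 8 other measured CpGs within 100 bp on the same strand were near 0 in the same libraries. In the 4 aged STD mice above 20% at this CpG, the highest of 24 neighbouring values was 12.3%, and 43 of the 44 neighbouring values in all aged STD mice were 0.

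At 104131753 in the flank, 1102 bp upstream of the start, the 5 aged STD mice with a value had 0, 0, 22.2, 22.5 and 29.3%. The 4 young STD and the 7 aged ENR mice with a value were all at 0%. The aging difference was 14.8 points (95% interval 3.88 to 25.8, exact permutation p = 0.238) and the ENR difference -14.8 points (-24.4 to -5.27, exact permutation p = 0.0909). The limma p of the ENR difference was the lowest of any CpG examined, but its adjusted p was 1. The permutation test does not borrow a variance from other CpGs, and its two-sided p doubles the smaller tail. With all values above 0 already in the aged STD mice, it could not fall under 0.05 for either difference. The 2 neighbours of this CpG within 100 bp on the same strand averaged 9.38% over young STD, 11.9% over aged STD and 13.1% over aged ENR mice. At 104133678 in an intron, 823 bp downstream of the start, young STD mice instead held the methylated values, at 0, 10, 20, 21.1 and 94.1%, whereas the 7 aged STD and 4 aged ENR mice with a value were all at 0%. Its difference was -29.0 points both for aging (exact permutation p = 0.0202) and for aged ENR against young STD (exact permutation p = 0.0794), each with a limma adjusted p of 1, and without young STD mouse 4, the mouse at 94.1%, it was -12.8 points in both. Its 3 neighbours within 100 bp on the same strand were at 0% in every mouse with a value. The methylated groups thus differed from CpG to CpG within the promoter and flank of one gene.

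The body of Crhr1, with 24 intronic CpGs, averaged 35.6 ± 10.1% (SD, n = 8) over young STD, 29.4 ± 9.97% (n = 8) over aged STD and 28.7 ± 6.13% (n = 8) over aged ENR mice. The per-mouse ranges of 22.7 to 56.6%, 11.7 to 43.9% and 16.6 to 34.6% overlapped. The aging difference of -6.17 points (95% interval -15.2 to 2.87) and the difference between aged ENR and young STD of -6.88 points (-15.9 to 2.15) did not exceed the spread between mice. In the Crhr1 body, aging gave -3.41 points without aged STD mouse 4 and -3.49 points without young STD mouse 2, and aged ENR against young STD gave -4.14 points without the latter. Only 1 further CpG of the gene had an unadjusted limma p under 0.05, the intronic CpG at 104168697, at 100% in all 6 young STD mice and 73.1 to 100% in 4 aged STD mice (difference -10.4 points, exact permutation p = 0.267). This CpG, like 55117779 of Crhr2 and 21998835 and 21950788 of Sgk1, was chosen after its values were seen.

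Crhr2, a receptor for the urocortin peptides as well (ENSMUSG00000003476.16, chromosome 6, 55090049 to 55133016, minus strand), had 17 promoter CpGs, which lay from 71 bp before to 297 bp after a start, all with a mean below 10%. Promoter means were 2.91 ± 4.87% (SD, n = 6), 0.589 ± 1.59% (n = 7) and 0.183 ± 0.808% (n = 7) in the young STD, the aged STD and the aged ENR mice. The young STD mean rested on mouse 1, at 12.5% against 0 to 3.48% in the other 5. The 5 body CpGs were high, at 75.9 ± 17.5% (n = 4), 77.2 ± 14.4% (n = 4) and 73.4 ± 21.6% (n = 5), with no difference beyond that spread. A promoter CpG 8 bp upstream of a start (55117779) was 0% in the 5 young STD and 6 aged STD mice with a value and 0 to 9.09% in 5 aged ENR mice (ENR difference 3.48 points, exact permutation p = 0.364, limma adjusted p = 1).

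Inside their spans, the ligand genes were almost free of methylation where they were measured. Crh (ENSMUSG00000049796.4, chromosome 3, 19693401 to 19695396, minus strand) had 16 CpGs at 13 positions, all in its coding exon between 19693977 and 19694109, and all 16 had a mean below 10%. Per mouse, the 6 young STD mice with enough CpGs were between -0.0969 and 0.0440%, the 7 aged STD mice went from -0.0969 to 9.13% (median 0.0440%) and the 8 aged ENR mice from -0.0969 to 6.25% (median 0.0220%). Above 1% were 3 aged STD mice, at 2.42, 6.25 and 9.13%, and 3 aged ENR mice, at 1.47, 3.62 and 6.25%, but 0 young STD mice. The ranges still overlapped near 0, and the aging difference was 2.58 points (95% interval -0.516 to 5.67, exact permutation p = 0.0921, limma adjusted p = 0.911). In the Crh body, aging gave 1.61 points without aged STD mouse 7 and 1.59 points without aged STD mouse 8. The CpG at 19693977 was 100% in 1 aged STD mouse, 21.4% in a second and 0% in the 3 other aged STD, 5 young STD and 7 aged ENR mice with a value. Avp (ENSMUSG00000037727.6, chromosome 2, 130580620 to 130582554, minus strand) had 4 body CpGs with a highest CpG mean of 3.40%. Its body means were 1.41 ± 3.27% (SD, n = 6), 0.119 ± 0.292% (n = 6) and 0.940 ± 1.85% (n = 8), and the young STD mean came from mouse 2 at 8.09%. Outside the gene, the flank CpG at 130579312, chosen after its values were seen, had values from 0 to 100% in 3 young STD mice (mean 33.3%), from 0 to 100% in 4 aged STD mice (mean 52.2%) and from 0 to 53.6% in 4 aged ENR mice (mean 13.4%), a spread as wide as the scale in both STD groups. Neither gene had a measured promoter CpG.

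Fkbp5 (ENSMUSG00000024222.17, chromosome 17, 28399094 to 28517527, minus strand) has 14 annotated start sites, and 94 of its 102 CpGs lay in their promoters. Around the RefSeq start the gene was unmethylated: the 57 CpGs between 28485202 and 28486494 had a median mean of 0%, and the RefSeq promoter (chr17:28486100-28486399, minus strand, 32 CpG positions) had 4 measured CpGs, all at 0% in every mouse with a value. Other Fkbp5 promoters were not unmethylated. An intronic block of 11 CpGs (28510679 to 28510764) had CpG means of 6.14 to 38.8%, and 3 CpGs upstream of an internal start (28442028 to 28442065) had means of 73.0 to 100%. Over all promoters, mice spanned 1.97 to 10.3% (median 6.97%) among young STD, 4.21 to 10.1% (median 5.86%) among aged STD and 4.88 to 9.38% (median 6.65%) among aged ENR mice. The aging difference was -0.312 points (95% interval -2.68 to 2.06) and the ENR difference 0.522 points (-1.85 to 2.89), and without aged STD mouse 5 they were 0.0738 and 0.149 points.

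Within the intronic block, the CpG at 28510757, 600 bp downstream of a start, was 0, 20, 24.2, 26.7 and 55.6% in aged ENR mice. It was 0% in the 3 aged STD mice with a value, and 0, 0, 0 and 18.4% in young STD mice. The ENR difference was 25.3 points (95% interval 2.24 to 48.3, exact permutation p = 0.143, limma adjusted p = 1). The 5 other CpGs within 100 bp on its strand had mean values of 16.2, 18.7 and 19.1% over the young STD, the aged STD and the aged ENR mice, so the neighbours did not show the gap between the groups. The upstream flank of the gene, with 5 CpGs, averaged 15.6 ± 12.2% (SD, n = 6) over young STD, 4.80 ± 5.95% (n = 3) over aged STD and 5.16 ± 6.93% (n = 6) over aged ENR mice. Of the young STD mice, 4 were between 17.6 and 27.9% and 2 were at -2.01 and 2.95%. The difference between aged ENR and young STD was -10.4 points (95% interval -21.6 to 0.849, exact permutation p = 0.0974, limma adjusted p = 0.945). The 3 body CpGs were near full methylation, with means of 89.8 ± 8.16% (n = 4), 86.1 ± 16.5% (n = 4) and 93.3 ± 7.28% (n = 5). The aging difference of -3.79 points in this body became 3.64 points without aged STD mouse 5, which was at 63.8%. Without that mouse the ENR difference of this body went from 7.22 to -0.202 points.

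Sgk1 (ENSMUSG00000019970.15, chromosome 10, 21882184 to 21999903, plus strand) had the most CpGs, 99 in promoters of its 11 start sites and 30 in the body. The promoters differed from each other. The 42 CpGs between 21994046 and 21994912 had a median CpG mean of 0%, as did the 18 CpGs between 21993173 and 21993489. An intronic block of 16 CpGs (21991357 to 21991833) lay at 6.16 to 41.1% per CpG, and a CpG 457 bp upstream of the first start (21881727) reached 94.3%. The RefSeq promoter at chr10:21993640-21993939 (GRCm38.p6, plus strand) is shown because it holds a palindromic glucocorticoid response element, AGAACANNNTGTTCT, in capitals. It is 1 of 3 such matches among 32851 RefSeq promoters of 300 bases searched on both strands (0.00913%), whereas the shorter AGAACA, which the palindrome contains, was present in 19% of them.
Sgk1 RefSeq promoter: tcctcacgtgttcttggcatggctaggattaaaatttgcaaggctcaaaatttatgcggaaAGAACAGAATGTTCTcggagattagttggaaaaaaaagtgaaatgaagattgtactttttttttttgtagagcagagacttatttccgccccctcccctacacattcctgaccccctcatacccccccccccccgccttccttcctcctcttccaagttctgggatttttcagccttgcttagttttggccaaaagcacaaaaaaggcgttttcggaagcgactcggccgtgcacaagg

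No CpG of this window was measured, and the nearest values were 212 bp upstream and 331 bp downstream of the element. The cyclic AMP response element TGACGTCA and the EGR1 site GCGTGGGCG, searched in the same way and present in 1.79 and 0.612% of promoters, were in 0 of the 12 RefSeq promoters of the 7 genes that had one. Per mouse, the promoter CpGs of Sgk1 together spanned 3.45 to 11.7% (median 6.66%) among young STD, 2.80 to 20.4% (median 7.45%) among aged STD and 3.66 to 10.1% (median 5.98%) among aged ENR mice. The highest value, 20.4%, was 1 aged STD mouse, and the next in that group was 12.1%. The ENR difference was -2.76 points (95% interval -6.73 to 1.22, exact permutation p = 0.207), and -1.12 points without aged STD mouse 8, the mouse at 20.4%.

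The body of Sgk1 gave the lowest limma p of the 16 tested regions of these genes. Its per-mouse values spanned 46.9 to 73.7% (median 62.7%) among young STD, 31.9 to 77.2% (median 59.9%) among aged STD and 42.2 to 60.1% (median 52.6%) among aged ENR mice. The means were 61.3 ± 8.36% (SD, n = 8), 56.9 ± 12.7% (n = 8) and 51.7 ± 6.41% (n = 8), and the ranges overlapped. The difference between aged ENR and young STD was -9.64 points (95% interval -19.3 to 0.0157, exact permutation p = 0.0227, limma adjusted p = 0.945). The aging difference was -4.41 points (-14.1 to 5.25) and the ENR difference -5.23 points (-14.9 to 4.43). The lowest aged STD value, 31.9%, belonged to aged STD mouse 5. Without that mouse the aging difference was -0.875 points and the ENR difference -8.72 points (limma adjusted p = 0.944). Without aged STD mouse 2, the highest at 77.2%, they were -7.16 and -2.57 points, and without young STD mouse 8 the aging difference was -2.25 points. How the gap between young STD and aged ENR mice was divided thus depended on single mice. Averaging each mouse's percentages without adjusting for the CpGs it covered gave -0.491 points for aging, -14.0 points for ENR and -14.5 points for aged ENR against young STD. With promoters within 500 bp, which leaves more CpGs to the body, these were -3.51, -2.74 and -6.25 points.

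Along the body the group means moved unevenly. The 6 coding-exon CpGs at 21997913 to 21998022 averaged 49.9% over young STD, 28.1% over aged STD and 20.8% over aged ENR mice, and the 3 CpGs of the 3′ UTR at 21998835 to 21998880 averaged 28.5, 8.89 and 8.67%. These averages were taken over CpG means and were not tested. In the 3′ UTR, 21998835 ranged from 0 to 100% in 4 young STD mice and was 0% in 4 aged STD mice (difference -41.7 points, exact permutation p = 0.143, limma adjusted p = 1). At the intronic CpG 21950788 the order was another one, with 100% in all 3 aged STD mice, 53.8 to 100% in 4 young STD and 0 to 100% in 5 aged ENR mice (ENR difference -51.6 points, exact permutation p = 0.143, limma adjusted p = 1).

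Both CpGs with an unadjusted limma p under 0.05 between aged ENR and young STD mice lay in Sgk1. At 21881743, 441 bp upstream of the first start, aged ENR mice had 97.9, 100, 100 and 100%, aged STD mice 54.8, 65.7, 96.6 and 100%, and young STD mice 46.7, 50, 56.5, 58.3 and 100%. All aged ENR values were thus above all young STD values except the single young mouse at 100%. The difference was 37.2 points (95% interval 10.3 to 64.1, exact permutation p = 0.0794, limma adjusted p = 1). Its 2 neighbours within 100 bp on the same strand had the opposite order, with means of 55.5% over young STD, 53.2% over aged STD and 46.7% over aged ENR mice. The CpG at 21993444, 446 bp upstream of a start, was 0% in all 4 aged STD mice, at most 2.70% in 8 young STD mice, and 0, 0, 0, 0, 24.5, 25.2 and 53.2% in 7 aged ENR mice (14.4 points against young STD, exact permutation p = 0.154, limma adjusted p = 1). Without the mouse at 53.2% this difference was 7.96 points.

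Hsd11b2 (ENSMUSG00000031891.6, chromosome 8, 105518755 to 105523988, plus strand) had 14 promoter CpGs, all with a mean below 10%. Promoter values per mouse spanned -0.469 to 9.83% (median 0.260%) among young STD, -0.165 to 7.60% (median -0.0383%) among aged STD and -0.469 to 10.7% (median 1.28%) among aged ENR mice. The aging difference was 0.0287 points (95% interval -3.51 to 3.57), or -0.336 points without aged STD mouse 5, and the ENR difference 1.28 points (-2.27 to 4.82). High values came from single mice: the CpG at 105519199 was 96.9% in 1 of 8 aged ENR mice and 0% in the other 20 mice with a value. The 3 body and 2 flank CpGs, the flank ones within Atp6v0d1, had too few mice with 3 CpGs for the region fit over all groups, and as single CpGs 0 of them had a limma adjusted p under 0.05.

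**Figure D2:**
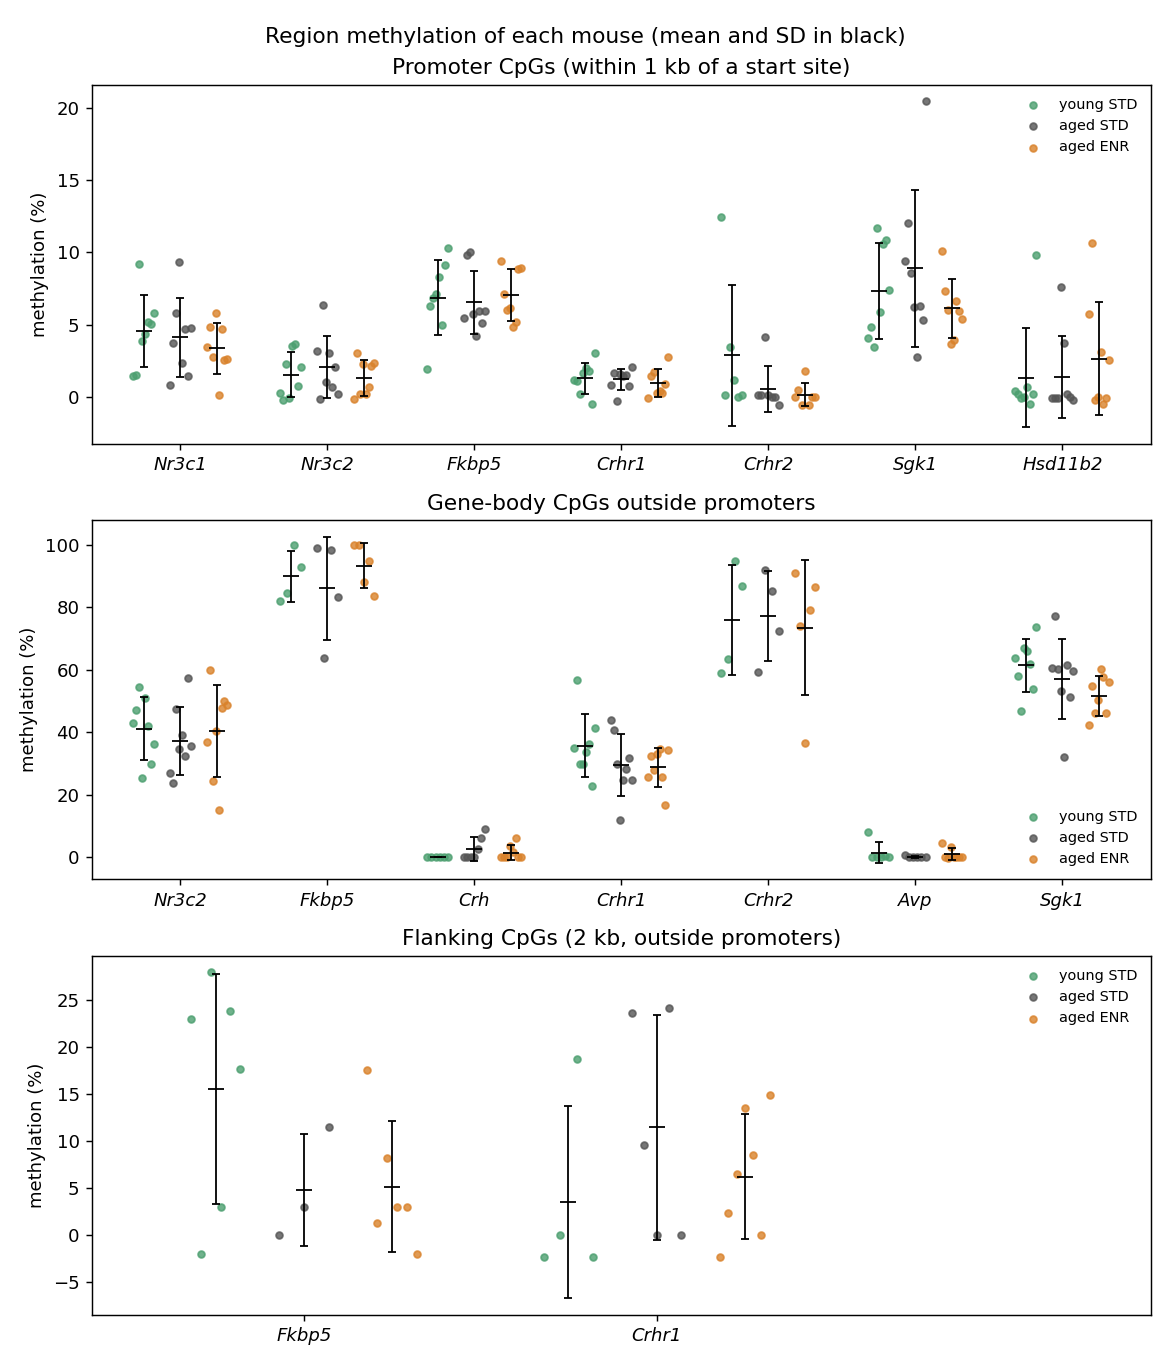
Methylation of each region in each mouse (%, vertical axis), with promoters, bodies and flanks in separate panels and the group mean ± SD in black. In every region the groups overlap, and the lowest aged STD value in the Sgk1 body, 31.9%, is mouse 5.

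Counted over all 9 genes, none of the comparisons gave a CpG or region that passed the test after adjustment over all CpGs or regions. With limma, a linear model with moderated variances fitted to all 694379 CpGs, an adjusted p under 0.05 together with a difference over 25 points was reached by 0 of the 552 CpGs for aging, for ENR and for aged ENR against young STD, where 0.00475, 0.00432 and 0.00504% of all CpGs reached it. An unadjusted p under 0.05 was found at 6 of the 552 CpGs for aging, 5 for ENR and 2 for aged ENR against young STD, which is at most 1.09%, while among all CpGs it was found at 2.23, 1.9 and 2.18%. Most of the 552 were promoter CpGs, of which 0.688, 0.688 and 0.459% had it, against 1.23, 1.04 and 1.14% of all CpGs within 1 kb of a start. Of the body CpGs 1.92, 0.962 and 0% had it, against 3.16, 2.69 and 3.14% of all CpGs elsewhere. Of the 13 differences with an unadjusted limma p under 0.05, 3 also had an exact permutation p under 0.05, all of them for aging. They were those at 39488875 of Nr3c1 and at 104132681 and 104133678 of Crhr1. The permutation test was run only on the CpGs and regions of these genes, so its share over all CpGs is unknown. The permutation test, added after the data were seen, put 0 further CpGs under 0.05 and 1 region difference, that of the Sgk1 body between aged ENR and young STD mice. Nor is the share of all regions under 0.05 in this test known. Of the 19 regions, 16 had enough mice to be tested. The adjusted p was under 0.05 in 0 of the 16 for each comparison, against 0, 0.00814 and 0.00814% of the 36839 regions of all genes, and an unadjusted p under 0.05 was likewise found in 0 of the 16 in each, against 5.19, 4.47 and 5.05%. Leaving out 1 mouse changed the unadjusted count. For aged ENR against young STD, the Sgk1 body came under 0.05 in 5 of 16 such runs and the Fkbp5 flank in 3 of 16. The Sgk1 body did so in 1 run for ENR, and the Crhr1 and Fkbp5 flanks in 1 run each for aging.

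By size alone, without a test, 24 of the 552 CpGs differed by more than 25 points with aging, with 5 above and 19 below their young STD mean. Of all CpGs measured, 9.16% differed by that much. For ENR 19 of the 552 CpGs did, 8 above and 11 below their aged STD mean (8.33% of all CpGs), and for aged ENR against young STD 27 did, 5 above and 22 below their young STD mean (8.43% of all CpGs). Promoters contributed 6, 6 and 10 of these CpGs and bodies 17, 11 and 17. Among promoter CpGs 1.38% did so for aging, against 4.47% of all CpGs within 1 kb of a start, and among body CpGs 16.3%, against 13.5% of all CpGs elsewhere. The median difference over the 552 CpGs was 0 points in each comparison, as it was over all CpGs. Sgk1 held 9 of the 24 aging CpGs (2 higher, 7 lower), and Nr3c2 held 5 (1 higher, 4 lower), whereas Crh, Crhr2 and Avp held 0. The 47 CpGs of these genes with a mean between 25 and 75% had a median SD between mice of 38.1 points, which is larger than 25 points.

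**Figure D3:**
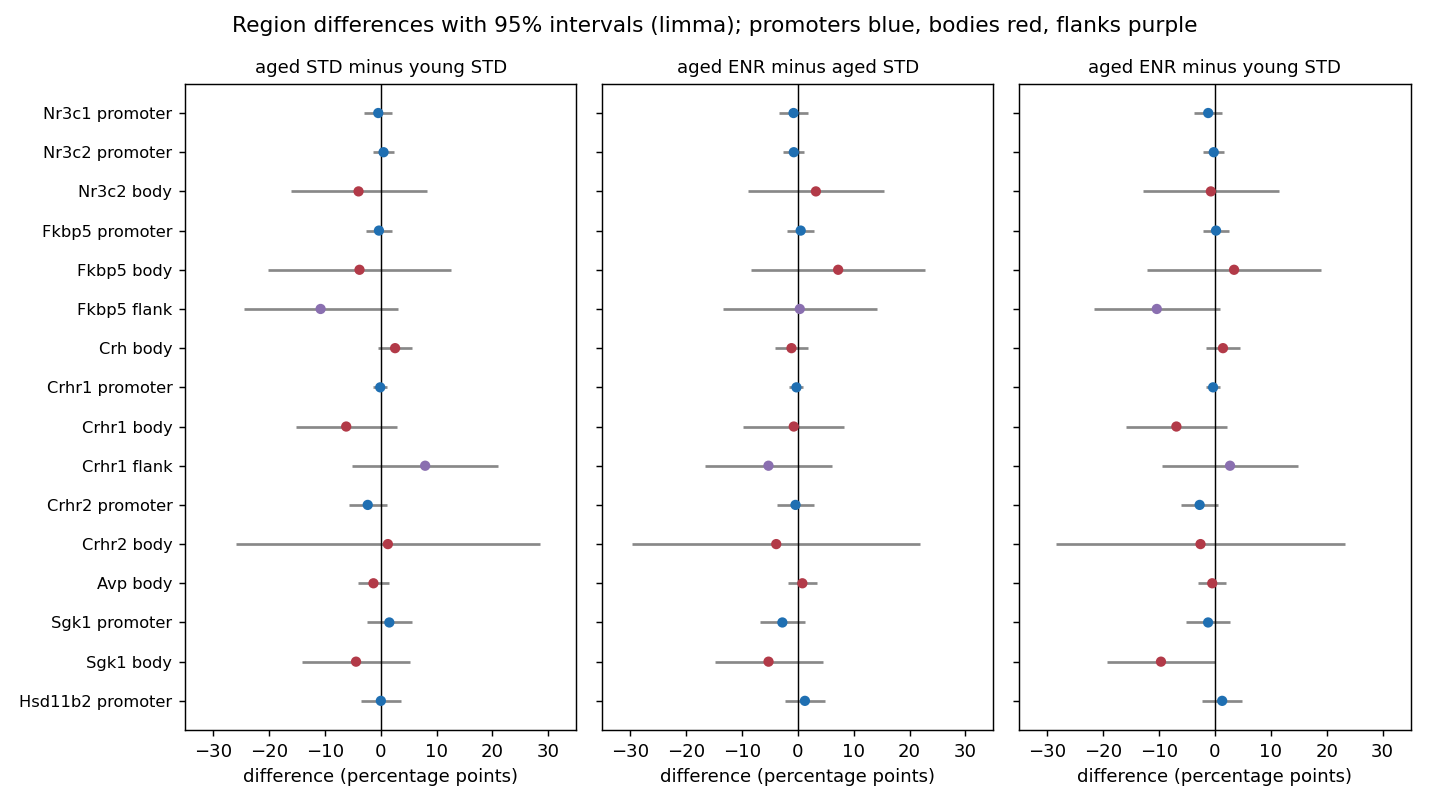
Differences between groups (percentage points, horizontal axis) for the 16 tested regions with their 95% limma intervals, promoters in blue, bodies in red and flanks in purple. All intervals include 0, and those of the promoters stay within 7 points of 0.

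**Figure D4:**
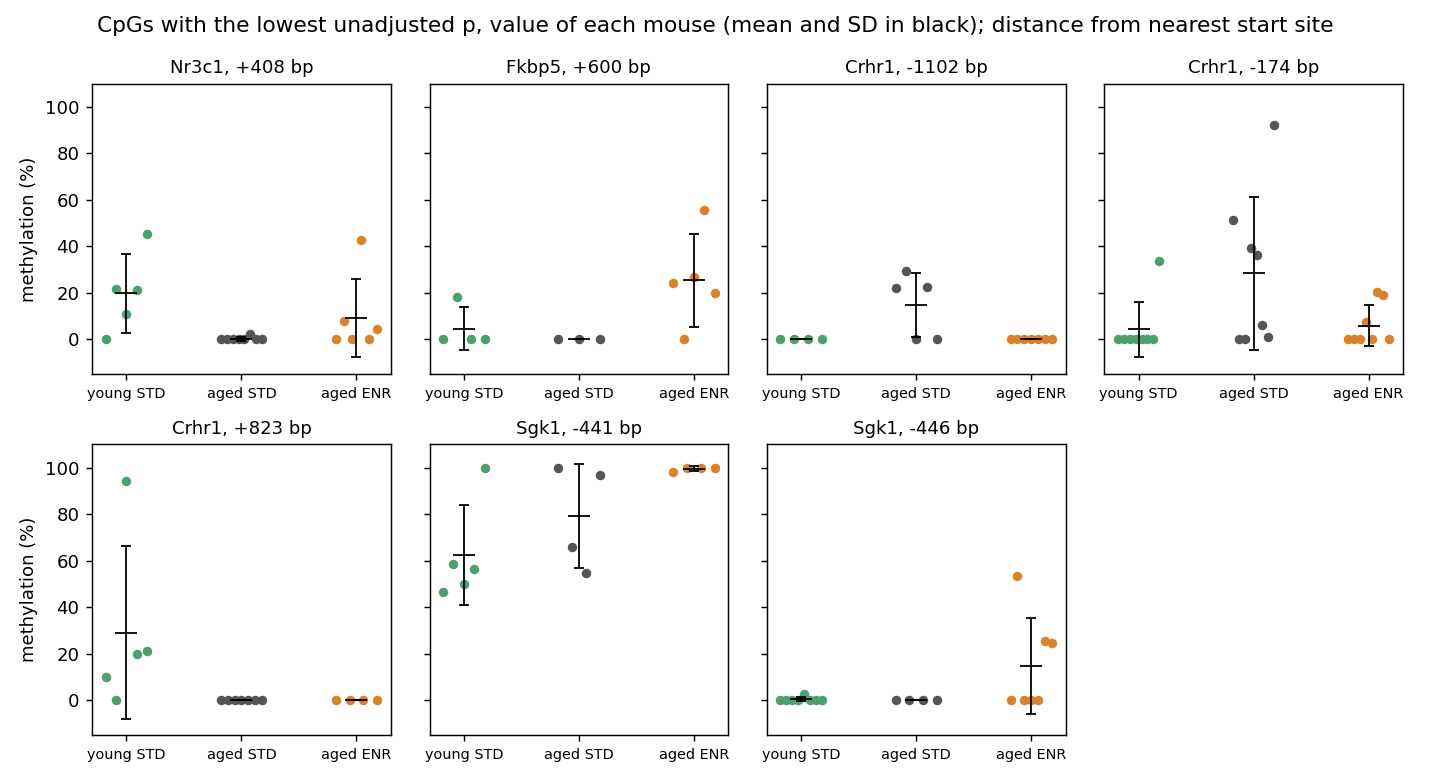
Methylation (%, vertical axis) of each mouse at the 7 CpGs with the lowest unadjusted p in any comparison, with group mean ± SD in black and the distance from the nearest start above each panel. In 6 of the 7 panels at least 1 group is entirely or almost entirely at 0%, and in each the groups share values.

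Other genes of the pathway were read in the same way, in 4 lists of 11 genes. Of the ligands and their receptors 8 genes had a tested region, of the receptor chaperones and coregulators 11, of the genes of steroid synthesis, transport and metabolism 6, and of the glucocorticoid-induced targets 11. An adjusted limma p under 0.05 was reached by 0 of their 59 tested regions in any comparison. The median aging difference over each list's regions was -0.233, 0.129, -1.07 and 0.553 points in that order, the median ENR difference -2.23, -0.138, -0.694 and -0.0094 points, and the median difference between aged ENR and young STD -0.344, 0.108, -2.76 and 0.231 points. Over all 36839 regions these medians were -0.0815, -0.185 and -0.282 points. For aging, 2 of the 59 regions had an unadjusted p under 0.05, a share no higher than the 5.19% of all regions, and both were lower in aged STD mice: the body of Zbtb16, a transcription factor induced by glucocorticoids (31.6% in young STD and 25.5% in aged STD mice, -6.11 points, SE 2.42, limma adjusted p = 0.911), and the flank of H6pd, which supplies the cofactor of Hsd11b1 (82.2 and 57.0%, -25.2 points, SE 9.05, limma adjusted p = 0.911). For ENR, the body of Cyp11a1, the enzyme that begins steroid synthesis, had an unadjusted p under 0.05, as did 4.47% of all regions, and a higher mean in aged ENR mice (54.5 and 68.7%, 14.1 points, SE 6.16, limma adjusted p = 0.964). The lowest adjusted p of these regions was that of the Zbtb16 body between aged ENR and young STD mice, at 21.3 and 31.6% over 73 CpGs (-10.2 points, SE 2.42, limma adjusted p = 0.443).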

How the data were processed

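DNA methylation of the micro-dissected dentate gyrus of 24 mice was measured by RRBS, 8 mice in each of 3 groups. Per the labels and methods, the authors trimmed reads with Trim Galore and Cutadapt 1.8.1, cut 2 further bases after an adapter, mapped them to mm10 (GRCm38) with Bismark and used methylKit 1.5.2 to discard CpGs under 10 reads or over the 99.9th percentile of coverage and those lacking a value in 3 or more mice per group. The processing notes name Trim Galore 0.4.0 and Bismark 0.16.1, and the methods name later releases of both. The authors deposited the percent methylation of each CpG, strand and mouse, without read numbers, so the read-level test of the study was not run here and depth is unknown.

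From these percentages, group means were compared with limma 3.58.1 (R 4.3.3), in a group-means model over all 24 mice fitted to all 694379 CpGs, with Benjamini-Hochberg adjustment over the whole table. The percentages of a promoter, body or flank were averaged per mouse as deviations from each CpG's mean plus the mean of the CpG means, for mice with at least 3 CpGs and regions with at least 3 mice a group, and fitted over the 36839 regions of all GENCODE M21 genes. Single CpGs and regions printed with a p were also tested by an exact two-sided permutation test of the difference of means over mice, which was chosen after seeing the data and is not adjusted for multiple tests. Its two-sided p is the smaller tail doubled. Both strands of 45 CpGs were measured, and their means differed by a median of 1.01 points. Promoter sequences are RefSeq's for GRCm38.p6, matched by symbol for 7 of the 10 genes, and none of Nr3c1, Crh or Hsd11b2. Windows around CpGs were read with samtools 1.23.1. Other steps used Python 3.11.15, numpy 2.4.6, pandas 2.3.3, scipy 1.17.1 and matplotlib 3.10.9.

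CpGs were named when they were among the 3 lowest p of a comparison or had the largest aging or ENR difference of a gene among CpGs with at least 5 mice a group, and other pathway genes when they were among the 2 lowest p of a list. The members and lists were chosen with earlier results of these data known. The named result of 1 pathway gene is not reported here. Mice are the replicates, so p-values measure the spread between mice. No 2 mice shared more than 0.157% of values between 0 and 100. Labels number the mice 1 to 8 in each group, but same-numbered mice are different animals. Deviations of same-numbered mice from their group means correlated at -0.0405 to 0.0205. The scripts were tested on simulated data: limma recovered 200 of 200 CpGs changed by 50 points for aging and called 75 of 694179 unchanged ones. The region fit recovered 130 of 137 regions shifted by 20 points. The changed CpGs had at least 5 mice a group. Their simulated spread was far below the median SD of 38.1 points at the intermediate CpGs of these genes. The shifted regions were rich in CpGs and low in methylation. These recoveries thus do not give the power at the CpGs and regions of these genes.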

Additional observations from a re-analysis of the deposited data

Results flagged for a closer look

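In groups of 4 to 10 mice, the highest or lowest mouse was compared with its group by Dixon's ratio. Of 47 groups of region values 7 held such a mouse, and of 65 groups of values at named CpGs 23 did. The limits used give about 1 in 20 for normally distributed values, which is not a background here. A single mouse above 0 among mice at 0 is always flagged, and 12 of the 65 groups had equal values throughout. The named CpGs were also picked for a low p or a large difference. Most of these groups were otherwise at or near 0, so that a single methylated mouse stood out, and the role of read number was not tested.

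Among regions, young STD mouse 5 was at 18.8% in the Crhr1 flank, where the 3 others reached at most 0%. In the Crhr2 promoter, young STD mouse 1 was at 12.5%, aged STD mouse 3 at 4.16% and aged ENR mouse 4 at 1.84%. In the Avp body, young STD mouse 2 was at 8.09% and aged STD mouse 1 at 0.714%. In the Hsd11b2 promoter, young STD mouse 8 was at 9.83% against at most 0.700% in the other 7.

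Among CpGs of the receptors, aged ENR mouse 4 was at 45.8% at 39486429 and 65.2% at 39486461 of Nr3c1, where the other aged ENR mice were at 0%. At 39488875 of Nr3c1, aged STD mouse 6 was at 2.38% and aged ENR mouse 6 at 42.5%, and aged STD mouse 6 was at 39.3% at 77214687 of Nr3c2. In Crhr1, young STD mouse 8 was at 33.8% at 104132681, young STD mouse 4 at 94.1% at 104133678, and aged ENR mouse 8 at 35.3% at 104157613 and 14.8% at 104171464.

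Among the other genes, aged STD mouse 7 was at 100% at 19693977 of Crh. At 130581240 of Avp, young STD mouse 2 was at 32.4% and aged STD mouse 1 at 2.86%. In Fkbp5, young STD mouse 5 was at 13.1% and aged ENR mouse 2 at 91.2% at 28485222, aged STD mouse 2 at 43.7% and aged ENR mouse 2 at 30% at 28485509, and young STD mouse 3 at 18.4% at 28510757. In Sgk1, young STD mouse 7 was at 100% and aged ENR mouse 2 at 97.9% at 21881743, where the 3 other aged ENR mice were at 100%, and young STD mouse 5 was at 2.70% at 21993444. In Hsd11b2, aged STD mouse 4 was at 69.0% and aged ENR mouse 5 at 43.4% at 105519167, and aged ENR mouse 2 at 96.9% at 105519199.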

How the results depend on the processing

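Under each alternative run, limma called 0 of the CpGs and 0 of the regions of these genes, and the lowest adjusted p of any region or named CpG was 0.875. Counts without a call moved more. Requiring values in at least 5 mice of every group left 148 CpGs, of which 5 (aging), 4 (ENR) and 4 (aged ENR against young STD) differed by over 25 points and 2, 2 and 0 had an unadjusted p under 0.05. With a size of 20 points, 42, 30 and 44 CpGs passed. For aged ENR against young STD, CpGs with an unadjusted p under 0.05 numbered 1 with both strands averaged (507 CpGs) and 5 on a logit scale. With an exact permutation test per CpG in place of limma, chosen after seeing the data, CpGs with an unadjusted p under 0.05 numbered 3, 0 and 0, a threshold that 3 mice against 3 or 4 cannot reach in this test. It is also out of reach at some CpGs with few values above 0. The share over all CpGs was not computed for this test. Leaving out each mouse in turn gave 17 to 30, 15 to 23 and 21 to 30 CpGs over 25 points, 4 to 10, 2 to 8 and 2 to 8 CpGs with an unadjusted p under 0.05, and 0 to 0 calls. The counts moved by over 1.5 times without young STD mouse 2 (10 for aging), without aged STD mice 1, 3 or 5 (3 for ENR), aged STD mice 4 or 6 or aged ENR mouse 2 (2 for ENR) or aged ENR mouse 7 (8 for ENR), and, for aged ENR against young STD, without young STD mice 1 or 3 (5), 2, 5 or 7 (4) or 4 (8). Medians of mice, a variance trend, other minimum CpG numbers per region and promoters within 500 bp moved no CpG count or number of called regions beyond 1.5 times. Regions with an unadjusted p under 0.05 were not counted in these runs. With at least 5 CpGs per mouse and region, the Sgk1 body had an unadjusted limma p of 0.0493 for aged ENR against young STD. The main run gave 0.0503. Uncentred means gave it an unadjusted limma p of 0.0267 there and 0.0317 for ENR. Of 48 region differences, 2 moved by more than the spread between mice with promoters within 500 bp and 2 with uncentred means, and of 66 differences at named CpGs 2 did with medians and 1 with strands averaged. The cause of these movements was not tested, beyond the fewer CpGs and mice that the stricter settings leave.

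The same-numbered mice are different animals, so the replicate number does not pair them, and 0 of 24 mice correlated best with their own number. With the number as a replicate block, 5, 5 and 5 CpGs had an unadjusted p under 0.05 and 0 CpGs and 0 regions were called. The block moved 2 of 48 region differences by more than the spread between mice, to -4.64 points (Fkbp5 body, ENR) and -22.4 points (Crhr2 body, aged ENR against young STD), and 2 of 66 differences at named CpGs, to -24.6 points (Fkbp5 CpG at 28510757, aging) and 0.816 points (Fkbp5 CpG at 28510757, aged ENR against young STD). The unknown number of reads limits single CpGs: 10 reads give steps of 10 points.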
